A study of Mus musculus with 230 samples.

Results

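The interferon response and MHC class I genes described here are 42 genes chosen by name from the 53278 genes of the count table. They were read in RNA of dorsal root ganglion sensory neurons, the cells that carry touch, pain and temperature signals from the body to the spinal cord. All mice were C57BL/6 X CAST/Ei crosses. Neurons of the L4 and L5 ganglia were dissociated with enzymes and picked by hand, and are labelled injured (sciatic nerve injury) or intact. The labels do not say whether intact neurons came from other mice or from the uninjured side. The 18 low-input libraries, whose number of cells the labels do not give, formed 6 groups of 3: intact and injured at 1, 8 and 12 months of age. The labels give the oldest group both as 12 months and as 1 year. A further 69 single cells were 18 intact and 21 injured cells at 1 month, and 8 intact and 22 injured cells at 1 year. The labels name neither the animals nor the time between surgery and collection, so p-values measure the spread between these libraries, which may be technical.

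Type I interferons are secreted proteins that signal through the receptor chains Ifnar1 and Ifnar2. The receptor activates Stat2, which joins Irf9 in a complex that binds a short DNA element, the interferon-stimulated response element, in the promoters of antiviral genes. Cells start this response when sensors such as Ifih1 and Ddx58 meet foreign or misplaced RNA and switch on Irf3 and Irf7. MHC class I genes are also raised by interferon and present peptides at the cell surface. Neurons are known for low resting levels of MHC class I.

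Promoter sequence was taken from RefSeq (GRCm38.p6), which gave windows of 300 bases, 250 before to 50 after the start, for 34 of the 42 genes. The response element core was searched as GAAA, 2 bases of any kind and GAAA, or as its reverse complement, TTTC, 2 bases of any kind and TTTC, and the gamma-activated site, an element of the interferon gamma branch, as TTCNNNGAA, which reads alike on both strands. The response element core was in 14 of the 34 windows (41.2%) and in 3.99% of the windows of all 27025 genes in the table. The gamma-activated site was in 9 of the 34 (26.5%) and in 9.55% of all. The core was in 8 of 11 antiviral effectors, in 1 of 6 antigen processing and MHC class I genes and in 0 of 2 receptor chains. A match is a description of the letters, not evidence of binding, and matches can overlap each other. Of the 8 genes called with injury below, 6 had a window and 4 of these held the core, as did 10 of the 28 others. The windows shown are those of called genes with the core (Ifit1, Ifit3 and Bst2) and without it (Oasl2), with Isg15, which was too rare to test, and B2m, which was not called. Ifi44, also called, held neither motif and is not shown. Each runs from 200 bases to 1 base before the start, 5′ to 3′ on the gene's strand, with matches in capitals. Ifit1, an RNA-binding antiviral protein, and its neighbour Ifit3 each held 2 cores. Isg15, a ubiquitin-like modifier, held 3 overlapping cores. Bst2 (tetherin, which holds budding virus at the cell surface) held 2 overlapping cores and a gamma-activated site that runs into them. B2m, the invariant chain of MHC class I, held 1 core. Oasl2, a member of the oligoadenylate synthetase family, held neither motif.
Ifit1 (chr19:34640689-34640888, plus strand): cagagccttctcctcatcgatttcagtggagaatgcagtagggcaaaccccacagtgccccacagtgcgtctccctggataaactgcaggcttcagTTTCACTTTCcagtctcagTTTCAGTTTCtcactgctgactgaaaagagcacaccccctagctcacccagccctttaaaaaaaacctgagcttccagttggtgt
Ifit3 (chr19:34583329-34583528, plus strand): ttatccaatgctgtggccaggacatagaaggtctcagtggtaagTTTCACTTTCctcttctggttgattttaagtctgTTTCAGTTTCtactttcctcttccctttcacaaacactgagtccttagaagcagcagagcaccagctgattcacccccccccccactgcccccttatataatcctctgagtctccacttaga
Isg15 (chr4:156200819-156201018, minus strand): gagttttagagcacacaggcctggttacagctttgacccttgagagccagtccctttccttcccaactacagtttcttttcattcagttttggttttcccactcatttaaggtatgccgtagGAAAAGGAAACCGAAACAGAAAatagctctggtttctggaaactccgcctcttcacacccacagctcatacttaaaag
Bst2 (chr8:71537473-71537672, minus strand): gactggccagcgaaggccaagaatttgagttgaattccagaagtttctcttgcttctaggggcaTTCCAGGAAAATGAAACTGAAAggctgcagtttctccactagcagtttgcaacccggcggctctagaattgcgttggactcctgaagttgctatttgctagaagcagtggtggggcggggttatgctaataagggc
B2m (chr2:122147487-122147686, plus strand): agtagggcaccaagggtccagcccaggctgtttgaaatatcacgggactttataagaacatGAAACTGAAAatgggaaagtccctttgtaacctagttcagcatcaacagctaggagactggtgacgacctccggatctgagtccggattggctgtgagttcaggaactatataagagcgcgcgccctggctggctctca
Oasl2 (chr5:114896734-114896933, plus strand): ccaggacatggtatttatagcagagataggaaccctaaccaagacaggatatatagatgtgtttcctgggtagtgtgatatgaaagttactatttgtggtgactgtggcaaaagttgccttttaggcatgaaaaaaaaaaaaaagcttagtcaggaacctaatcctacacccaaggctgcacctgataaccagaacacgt

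The low-input libraries held 7531967 to 19443627 gene counts. A single feature, CT010467.1, took 29.4% to 93.8% of them, and within each age a lower share in every injured than in any intact library. Levels are given as CPM, the count divided by the scaled library size and multiplied by 1000000. The injured libraries carried the known injury transcripts: the summed level of Atf3, Sprr1a, Gal, Npy, Nts, Sox11 and Ecel1 was 570.4 to 3180 CPM in injured and 3.19 to 28.3 CPM in intact libraries. All 12 neuronal markers were detected in every library. A pair of libraries stood apart. Intact replicate 2 at 12 months held 770328 counts outside the dominant feature and 72 counts over the 42 genes, against 1770 to 12048 in the other 17 libraries. Injured replicate 1 at 8 months held the 12048. In intact replicate 2 at 12 months, mitochondrial genes took 40.5% of the counts outside the dominant feature. In the other libraries they took 1.19% to 3.55%.

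Interferon genes themselves were close to absent. Of 10 interferon ligand genes (Ifnb1, 4 alpha genes, Ifng, Ifnk, Ifne, Ifnl2 and Ifnl3), 9 had 0 counts in all 18 low-input libraries. Ifnk, an epithelial type I interferon, had 5 counts in 1 library. With 95909474 counts outside the dominant feature in all, 3 counts, the limit that a count of 0 allows, are 0.0313 CPM. This limit covers counting error only. In the 55 single cells described below, Ifna5 had 7 counts in 1 cell, Ifnk 6 counts in 3 cells and the other 8 genes none.

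The comparison of injured with intact libraries, averaged over the 3 ages with equal weights, tests the mean of the 3 within-age changes. A gene can pass it without differing at every age. Usp18, called here, had mean levels of 0.587 CPM injured and 0.703 CPM intact at 1 month. Of the 42 genes, 37 had enough counts to be tested. At an adjusted p below 0.05 (edgeR quasi-likelihood test, Benjamini-Hochberg over 14212 genes), 8 rose in injured neurons and 0 fell. These were Ifit1, Ifit3, Ifit3b, Usp18, Bst2, Mx1, Oasl2 and Ifi44. Of all genes tested, 5.11% were called higher in this comparison, against 8 of 37 here. The fitted log2 change was positive for 27 of the 37 genes, with a median of 0.83, and for 52.7% of all genes, with a median of 0.03. An unadjusted p below 0.05 was reached by 13 of the 37 and by 20.3% of all genes. By role, the calls were 6 of 11 tested antiviral effectors, 1 of 7 other interferon-induced genes and 1 of 2 in the Isg15 modifier system. They were 0 of 4 sensors, 0 of 2 receptor chains, 0 of 5 transcription factors and 0 of 6 antigen processing and MHC class I genes. Isg15, Oas2, Oas3, Trim30a and Parp9 had too few counts to be tested.

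**Figure D1:**
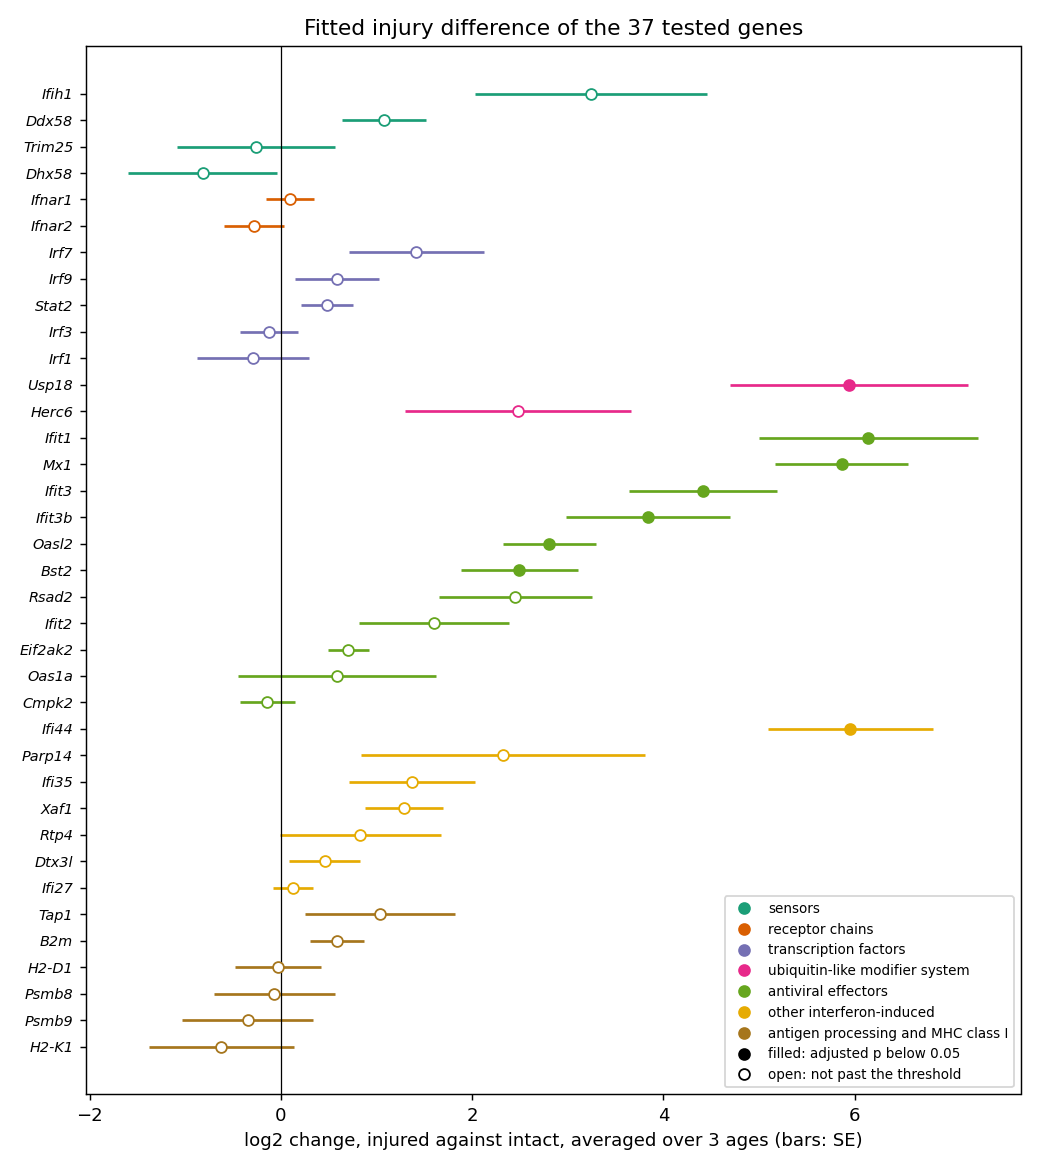
Fitted log2 change of the 37 tested genes, injured against intact, averaged over the 3 ages (x axis), with genes on the y axis grouped by role. Points are edgeR estimates, bars are SE, and filled points passed an adjusted p of 0.05. The 8 filled points are antiviral effectors, Ifi44 and Usp18, and no receptor chain or MHC class I gene is filled.

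The receptor chains did not pass the test in either direction. Ifnar1 (chromosome 16, 91485238 to 91507441) stood at 7.998, 13.2 and 19.95 CPM in the intact and 9.295, 9.499 and 13.1 CPM in the injured libraries at 1 month. It was 6.39, 7.47 and 19.4 CPM intact and 7.24, 9.999 and 12.5 CPM injured at 8 months, and 6.33, 7.22 and 9.13 CPM intact and 11.4, 13.9 and 14.6 CPM injured at 12 months. The groups overlapped at 1 and 8 months and were apart at 12 months. The averaged log2 change of Ifnar1 was 0.09 ± 0.25 (SE, n = 9 against 9 libraries), with an adjusted p of 0.888 in edgeR. Ifnar2 (chromosome 16, 91372783 to 91405589) was 3.67, 5.50 and 5.71 CPM in intact and 5.08, 5.13 and 8.75 CPM in injured libraries at 1 month. At 8 months it was 1.97, 5.77 and 11.2 CPM intact against 3.52, 3.69 and 3.82 CPM injured, and at 12 months 3.85, 5.42 and 10.7 CPM against 3.86, 5.09 and 6.21 CPM. The groups overlapped at every age (log2 change -0.29 ± 0.31, edgeR adjusted p = 0.665), and the sign turned positive with scaling to the ERCC spike-ins.

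Among the sensors, Ifih1 (MDA5, a sensor of long double-stranded RNA) and Ddx58 (RIG-I, a sensor of RNA ends) had positive fitted changes of 3.24 ± 1.22 and 1.08 ± 0.44 on the log2 scale, with edgeR adjusted p-values of 0.136 and 0.162. Dhx58 (LGP2), which tunes the other sensors, and Trim25, the ubiquitin ligase that activates Ddx58, had changes of -0.82 ± 0.78 and -0.26 ± 0.82. Ddx58 did not overlap between groups at 8 and 12 months. None of the 4 passed the test.

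The transcription factors also stayed under the threshold. Irf7, the factor that amplifies the response, was 0.173, 0.581 and 1.43 CPM in intact and 0.424, 0.513 and 1.41 CPM in injured libraries at 1 month. At 8 months the values were 0, 2.49 and 3.30 CPM intact and 2.05, 4.65 and 25.5 CPM injured. At 12 months they were 0, 0.428 and 2.83 CPM intact and 2.19, 2.83 and 7.499 CPM injured. Injured and intact values overlapped at each age, and the highest was injured replicate 1 at 8 months. The averaged log2 change of Irf7 was 1.42 ± 0.71 (edgeR adjusted p = 0.274). Stat2, which carries the signal to DNA, was higher than Irf7 in every library, at 10.2, 17.8 and 18.2 CPM intact and 12.8, 14.5 and 21.1 CPM injured at 1 month. It was 22.8, 25.96 and 50.05 CPM intact and 29.1, 31.9 and 99.3 CPM injured at 8 months, and 13.47, 13.52 and 25.3 CPM against 21.3, 22.01 and 34.98 CPM at 12 months. The groups overlapped at each age (0.48 ± 0.27, adjusted p = 0.336).

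Irf9, the DNA-binding partner of Stat2, was 2.31, 3.11 and 5.33 CPM in intact and 2.47, 2.50 and 2.78 CPM in injured libraries at 1 month. It was 2.06, 4.11 and 4.68 CPM intact against 8.06, 8.53 and 12.1 CPM injured at 8 months, where the groups did not overlap. At 12 months it was 0, 0 and 3.94 CPM intact and 2.70, 3.42 and 3.52 CPM injured. The averaged log2 change of Irf9 was 0.58 ± 0.44 (edgeR adjusted p = 0.498). Without intact replicate 1 at 12 months, which leaves the other 2 intact libraries of that age at 0, Irf9 was at 3.12 and passed the test. Irf3, the factor present before any stimulus, was 7.38, 10.2 and 10.7 CPM intact and 4.77, 6.41 and 8.397 CPM injured at 1 month. It was 3.78, 6.799 and 8.79 CPM against 6.53, 7.44 and 7.59 CPM at 8 months, and 0, 4.78 and 9.67 CPM against 4.83, 5.54 and 7.21 CPM at 12 months, with overlap at each age. Its log2 change was -0.12 ± 0.30 (adjusted p = 0.878), and its sign turned positive with spike-in scaling. Irf1, which acts in the interferon gamma branch, had a change of -0.29 ± 0.59.

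**Figure D2:**
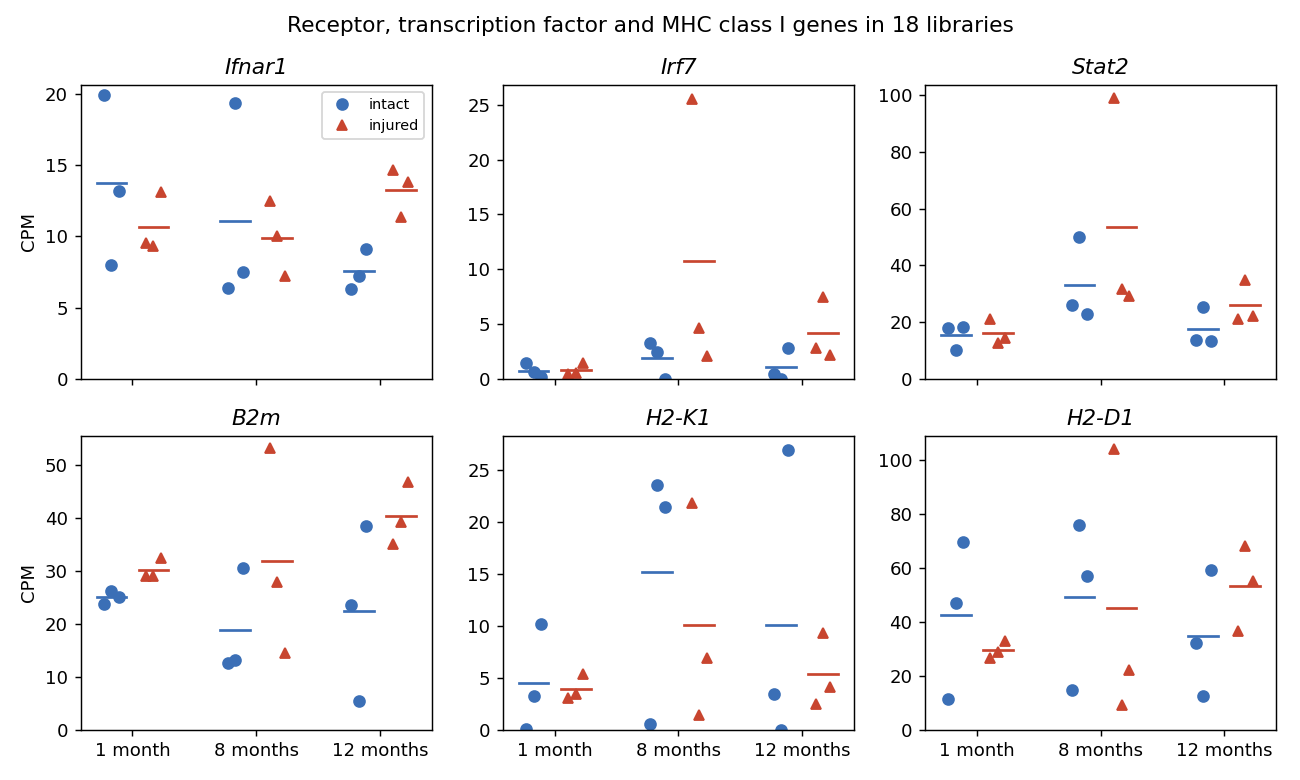
CPM (y axis, linear, from 0) of a receptor chain, a pair of transcription factors and 3 MHC class I genes in the 18 low-input libraries by age (x axis). Circles are intact and triangles injured libraries, and lines are group means of 3. The groups overlap for most genes and ages, and injured replicate 1 at 8 months is the highest point for Irf7, Stat2, B2m and H2-D1.

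The Ifit genes, which bind viral RNA and lie side by side on chromosome 19, held 3 of the calls. Ifit1 (chromosome 19, 34640871 to 34650009) was 0, 2.90 and 8.07 CPM in intact and 0.847, 1.35 and 11.04 CPM in injured libraries at 1 month. At 8 months it was 0 in all 3 intact libraries and 14.2, 33.6 and 166.1 CPM in the injured ones, and at 12 months 0, 0 and 0.599 CPM against 8.91, 9.47 and 26.7 CPM. The groups overlapped at 1 month and were apart at 8 and 12 months. Over the group, 2488 counts against 0 at 8 months are at least 648-fold higher against a floor of 3 counts, and 1796 of the 2488 came from injured replicate 1. For Ifit1 the log2 change averaged over ages was 6.14 ± 1.15 (edgeR adjusted p = 0.00633). Here and for the other genes with a group at 0, the fitted change depends on the prior count and is no bound.

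Ifit3 (chromosome 19, 34583531 to 34588731) was one of 3 genes whose injured libraries lay above all intact ones. It was 0, 0.444 and 1.04 CPM in intact and 1.86, 2.31 and 2.42 CPM in injured libraries at 1 month. It was 0, 0 and 0.108 CPM against 1.25, 1.36 and 10.9 CPM at 8 months, and 0, 0.0856 and 0.217 CPM against 1.57, 2.11 and 4.86 CPM at 12 months. For Ifit3 the log2 change averaged over ages was 4.42 ± 0.78 (edgeR adjusted p = 0.00228). Ifit3b is a close copy of Ifit3 and shares sequence with it, so the split of reads between them is uncertain. Ifit3b was 0, 0.173 and 0.205 CPM intact and 0.128, 0.353 and 0.666 CPM injured at 1 month. It was 0 in all intact libraries against 0.614, 1.94 and 9.16 CPM at 8 months, and 0, 0.428 and 0.869 CPM against 0.251, 2.04 and 2.05 CPM at 12 months, with overlap at 1 and 12 months (3.84 ± 0.86, adjusted p = 0.0138). Ifit2 did not pass the test (1.60 ± 0.79, adjusted p = 0.269). Its injured libraries lay above the intact ones at 8 and 12 months, but the highest value at 1 month, 20.7 CPM, was an intact library.

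Mx1 (chromosome 16, 97447035 to 97462907), a GTPase that blocks incoming virus, was 0 in all 3 intact libraries at 1 month and 0.265, 0.385 and 0.787 CPM in the injured ones. It was 0.0821, 0.103 and 0.108 CPM against 0.819, 2.99 and 11.6 CPM at 8 months, and 0, 0 and 0.0856 CPM against 3.94, 5.21 and 6.09 CPM at 12 months. All 9 injured libraries lay above all 9 intact ones. For Mx1 the log2 change averaged over ages was 5.86 ± 0.70 (edgeR adjusted p = 0.000141), and at 1 month alone it was 5.71 ± 1.26 with an adjusted p of 0.102. Mx1 and its neighbour Mx2 share sequence. Ifi44 (chromosome 3, 151730922 to 151749960), an interferon-induced protein of the cytoplasm, also had no overlap. It was 0, 0.137 and 0.15 CPM intact and 0.363, 0.577 and 0.972 CPM injured at 1 month. The intact libraries held 0 counts at 8 and 12 months, against 0.683, 1.60 and 2.04 CPM and 1.68, 1.88 and 3.75 CPM in the injured ones. These are at least 14.3-fold and 14.1-fold higher against a floor of 3 counts (averaged log2 change 5.96 ± 0.86, adjusted p = 0.00119).

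Ifit3, Mx1 and Ifi44 were the 3 of 37 tested genes with all 9 injured above all 9 intact libraries, a pattern held by 0.943% of all genes tested. The same 3 had no overlap within each of the 3 ages, which held for 1.83% of all genes. Within single ages, injured libraries lay wholly above intact ones for 6 of the 37 at 1 month, 14 at 8 months and 14 at 12 months. The shares over all genes were 10.5%, 9.39% and 19.2%. No member was wholly below at any age. In intact replicate 2 at 12 months a single count is 1.81 CPM. A count of 0 there cannot be told apart from injured values near or below that level. The lowest injured values were 0.265 CPM for Mx1, 0.363 CPM for Ifi44 and 1.25 CPM for Ifit3. The patterns at 12 months and over all ages carry this limit of depth.

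**Figure D3:**
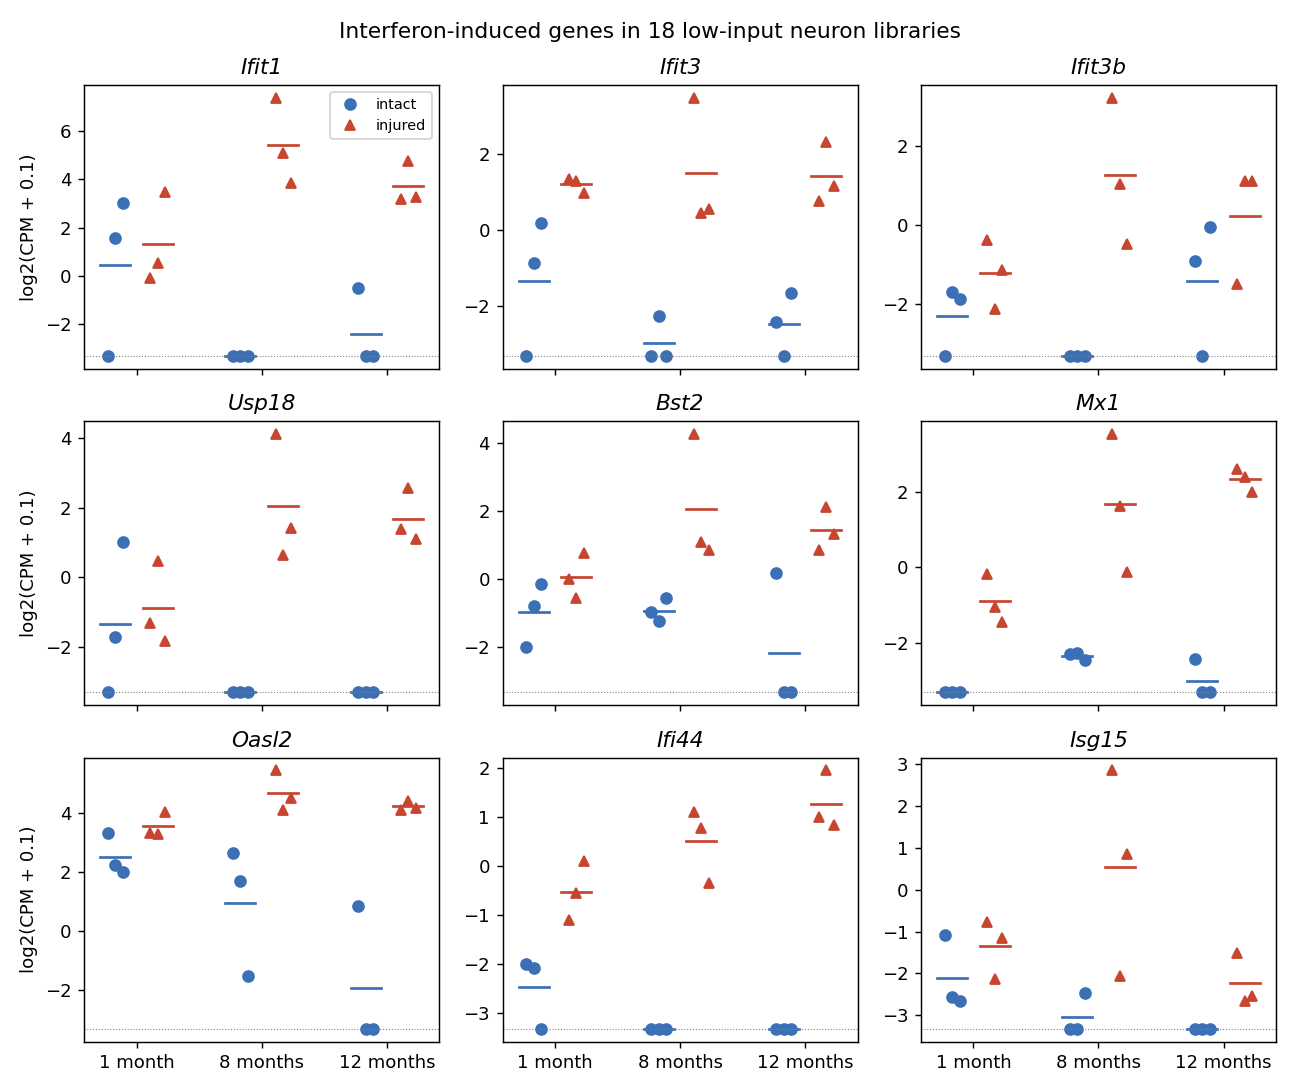
Level of the 8 genes called in the averaged comparison and of Isg15 in each of the 18 low-input libraries, as log2(CPM + 0.1) (y axis) by age (x axis). Circles are intact and triangles injured libraries, lines are means of 3, and the dotted line is 0 CPM. For Ifit3, Mx1 and Ifi44 every triangle lies above every circle; injured replicate 1 at 8 months is the highest point in 8 of the 9 panels, the exception being Ifi44.

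Oasl2 (chromosome 5, 114896936 to 114912234) was the called gene with the highest level at rest. It was 3.92, 4.58 and 10.05 CPM in intact and 9.74, 9.86 and 16.5 CPM in injured libraries at 1 month, with overlap. It was 0.246, 3.13 and 6.18 CPM against 17.01, 22.9 and 43.8 CPM at 8 months, and 0, 0 and 1.71 CPM against 17.3, 18.1 and 21.5 CPM at 12 months, apart at both ages. The averaged log2 change of Oasl2 was 2.81 ± 0.49 (edgeR adjusted p = 0.00207). Bst2 (chromosome 8, 71534255 to 71537456) was 0.15, 0.478 and 0.807 CPM intact and 0.577, 0.908 and 1.59 CPM injured at 1 month. It was 0.324, 0.412 and 0.575 CPM against 1.71, 2.01 and 18.9 CPM at 8 months, and 0, 0 and 1.03 CPM against 1.695, 2.41 and 4.22 CPM at 12 months. Overlap was seen at 1 month alone (2.49 ± 0.61, adjusted p = 0.0207). Its call was lost without injured replicate 1 at 8 months and without injured replicate 2 at 12 months.

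Usp18 (chromosome 6, 121245906 to 121270917) removes Isg15 from proteins and damps the receptor. It was 0, 0.205 and 1.90 CPM in intact and 0.177, 0.302 and 1.28 CPM in injured libraries at 1 month, with overlap. The intact libraries held 0 counts at 8 and 12 months, against 1.46, 2.59 and 17.3 CPM and 2.04, 2.51 and 5.80 CPM in the injured ones. Against a floor of 3 counts these are at least 64.1-fold and 20.1-fold higher (averaged log2 change 5.94 ± 1.25, edgeR adjusted p = 0.012). Isg15 (chromosome 4, 156199424 to 156200818), the modifier itself, was rare and not tested. It had 5, 2 and 1 counts in intact and 8, 2 and 4 counts in injured libraries at 1 month. At 8 months it had 0, 0 and 1 counts against 77, 2 and 25, and at 12 months 0 in all intact against 4, 1 and 1. The ratio over the groups at 8 months was 81.2, with a 95% counting interval of 14.3 to 3240, and 77 of the 104 counts came from injured replicate 1. Herc6, the ligase that attaches Isg15 in the mouse, had a change of 2.48 ± 1.18 (adjusted p = 0.256).

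The remaining effectors did not pass in edgeR. Rsad2 (viperin, which makes a chain-ending nucleotide) had a log2 change of 2.45 ± 0.80 and an edgeR adjusted p of 0.081. Eif2ak2 (PKR, the kinase that halts translation on double-stranded RNA) had 0.70 ± 0.21 and 0.0596, and Xaf1, a protein linked to cell death, 1.29 ± 0.41 and 0.0691. DESeq2 called all 3. Cmpk2, the gene beside Rsad2, had -0.15 ± 0.29, and Ifi27, the most abundant of the 42 genes per length, 0.13 ± 0.21. Ifi27 stood at 41.5 to 181.3 CPM in intact and 103.0 to 157.6 CPM in injured libraries. Per kb of exon, the mean over the 9 intact libraries was 81.1 CPM for Ifi27, 25.7 for B2m, 16.4 for H2-D1 and 3.81 or less for the other 39 genes.

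Of the antigen processing and MHC class I genes, 0 of 6 passed the test; 2 had positive and 4 negative changes, with a median of -0.05. B2m was 23.9, 25.2 and 26.2 CPM in intact and 28.97, 29.1 and 32.4 CPM in injured libraries at 1 month, without overlap. It was 12.7, 13.2 and 30.6 CPM against 14.5, 27.8 and 53.2 CPM at 8 months, and 5.42, 23.5 and 38.5 CPM against 35.03, 39.2 and 46.9 CPM at 12 months, both with overlap. The averaged log2 change of B2m was 0.59 ± 0.28 (edgeR adjusted p = 0.256). H2-D1, a class I heavy chain, was 11.6, 46.8 and 69.6 CPM intact and 26.5, 28.97 and 33.05 CPM injured at 1 month. It was 14.8, 56.9 and 75.9 CPM against 9.23, 22.3 and 104.3 CPM at 8 months, and 12.6, 32.01 and 59.1 CPM against 36.6, 55.3 and 68.2 CPM at 12 months (-0.03 ± 0.45, adjusted p = 0.985).

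H2-K1, the other class I heavy chain, varied widely among the intact libraries with counts, from 0.075 to 26.9 CPM, with 0 in intact replicate 2 at 12 months. At 1 month it was 0.075, 3.25 and 10.2 CPM intact and 3.03, 3.46 and 5.39 CPM injured. It was 0.515, 21.4 and 23.6 CPM against 1.39, 6.90 and 21.8 CPM at 8 months, and 0, 3.42 and 26.9 CPM against 2.51, 4.15 and 9.31 CPM at 12 months. The groups overlapped at each age (-0.62 ± 0.76, edgeR adjusted p = 0.702). The signs of H2-K1 and H2-D1 both turned positive with spike-in scaling. Tap1, the peptide transporter, was 0.0684, 0.634 and 2.17 CPM intact and 0.577, 0.666 and 1.77 CPM injured at 1 month. It was 0, 3.91 and 4.22 CPM against 2.25, 3.12 and 5.55 CPM at 8 months, and 0, 0.257 and 1.81 CPM against 1.07, 1.68 and 2.34 CPM at 12 months, with overlap at each age (1.04 ± 0.78, adjusted p = 0.497). The immunoproteasome subunits Psmb8 and Psmb9 had changes of -0.07 ± 0.63 and -0.35 ± 0.68. Class I heavy chains are a multigene family and differ between strains, and the counts rest on reads that map once to a single reference, so their levels in these crosses are uncertain.

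Taken age by age, 0 of the 37 genes passed at 1 month, where 0.232% of all genes were called higher and 3 of the 37 had an unadjusted p below 0.05. DESeq2 called 1. At 8 months 5 rose (Ifit1, Ifit3, Ifit3b, Mx1 and Ifi44; 0.915% of all genes), with a median log2 change over the 37 of 1.24. Without injured replicate 1 at 8 months 2 were called, and the median was 0.29. Leaving out any 1 of the 6 libraries of that age left 0 to 2 calls, and leaving out intact replicate 2 or any injured library at 1 month, or any injured library at 12 months, left 1 or 2. At 12 months 3 rose (Mx1, Oasl2 and Ifi44; 2.19% of all genes), with a median of 1.21, or 0.81 with the genes at 0 in the intact group set to their bound. Leaving out intact replicate 3 or injured replicate 1 or 2 at 12 months left 0 calls, and leaving out injured replicate 3 left 1. The replicate block left 1 call at 8 months (Ifit1) and 0 at 12 months. Adding the percentage of counts in CT010467.1 as a covariate, limma-voom with quality weights, and edgeR on only the libraries compared left 0 at both ages, while DESeq2 called 9 and 7. The difference between ages was tested as an interaction: 0 of the 37 genes and 0.0% of all genes passed in edgeR, 7 of the 37 (and 8.17% of all genes) had an unadjusted p below 0.05, and DESeq2 called 2.

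The averaged comparison is changed by several settings. Blocking on the replicate number left 4 calls (Ifit1, Ifit3, Mx1 and Oasl2), and limma-voom with sample quality weights left 4 (Ifit3, Mx1, Oasl2 and Ifi44). DESeq2 called 11, the 8 with Rsad2, Eif2ak2 and Xaf1. Adding the percentage taken by CT010467.1 to the model left Mx1 alone. Mx1 passed under all 27 alternatives of that comparison, with a highest adjusted p of 0.0249.

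With the model fitted to all 18 libraries and the expression filter, none of the 37 tested genes passed a comparison between ages in edgeR. Among intact neurons this was 0 of 37 for 8 against 1 month (0.922% of all genes called), for 12 against 1 month (0.246%) and for 12 against 8 months (6.69%). Unadjusted p-values below 0.05 were reached by 8, 4 and 6 of the 37, and by 16.2%, 10.7% and 25.3% of all genes. DESeq2 called 1, 0 and 3. Among injured neurons it was 0 for 8 against 1 month (0.225%), for 12 against 1 month (0.113%) and for 12 against 8 months (0.0633%). Here unadjusted p-values below 0.05 were reached by 16, 3 and 4, and by 4.99%, 3.86% and 4.29% of all genes. DESeq2 called 2, 0 and 0, limma-voom with quality weights 2, 5 and 3, and edgeR on only the libraries compared 1, 2 and 0. In injured neurons 34 of the 37 fitted changes from 1 to 8 months were positive, with a median of 1.73, against 49.6% of all genes. Without injured replicate 1 at 8 months the median was 0.79, and from 8 to 12 months it moved from -1.04 to -0.07.

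Injured replicate 1 at 8 months held the highest level of many induced genes at once. The summed level of the 25 effector, other induced and modifier genes was 679.3 CPM there, 229.5 and 307.5 CPM in the other injured libraries of that age, and 61.4 to 274.2 CPM in the remaining 15. Ifi27, which was not called, is a large part of this sum in many libraries. It was 136.3 CPM of the 679.3 CPM, 120.2 CPM of the 229.5 CPM and 157.6 CPM of the 307.5 CPM. In the library at 61.4 CPM it was 41.5 CPM. Injured replicate 1 at 8 months also had 196.1 CPM over the 6 antigen processing and MHC class I genes, against 19.9 to 126.5 CPM in the other 17. All 42 genes had counts in it.

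Markers of some other cell types moved with some of these values, and others did not. The 20 macrophage and leukocyte markers summed to 3.87 to 17.7 CPM in injured and to 0.435 to 5.05 CPM in intact libraries, leaving aside intact replicate 2 at 12 months with 34.3 CPM. In injured replicate 1 at 8 months the sum was 10.6 CPM, between the 7.51 and 12.1 CPM of the other replicates. The 6 fibroblast markers summed to 18.6 to 63.7 CPM in injured and 0 to 16.7 CPM in 8 intact libraries. In intact replicate 2 at 12 months they summed to 74.05 CPM, the highest of all 18 libraries. The 8 satellite glia markers stood at 1299 to 2033 CPM in injured and 115.3 to 622.1 CPM in intact libraries at 1 month. They were at 370.6 to 712.4 CPM against 121.7 to 545.9 CPM at 8 months, and at 134.2 to 450.4 CPM against 54.5, 100.2 and 747.7 CPM at 12 months, the last in intact replicate 2. T and NK cell markers summed to at most 0.9 CPM in any library, with Cd8a at 0 in all. The Schwann cell markers overlapped, at 310.4 to 549 CPM in injured and 203.8 to 847.6 CPM in intact libraries. Endothelium markers also overlapped, at 0.0694 to 2.87 CPM in injured and 0 to 1.96 CPM in intact libraries, with 16.3 CPM in intact replicate 2 at 12 months. In the leukocyte list Laptm5, a lysosomal membrane protein, rose with injury (3.80 ± 0.97 on the log2 scale, edgeR adjusted p = 0.029), as did Col1a2, a collagen chain, among the fibroblast markers (3.93 ± 0.98, adjusted p = 0.0254). Results of the other single markers are not given here, so these 2 genes do not stand for their lists. The part of such cells in the differences was not tested. In pooled libraries, more cells expressing a gene and more RNA per cell cannot be told apart.

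**Figure D4:**
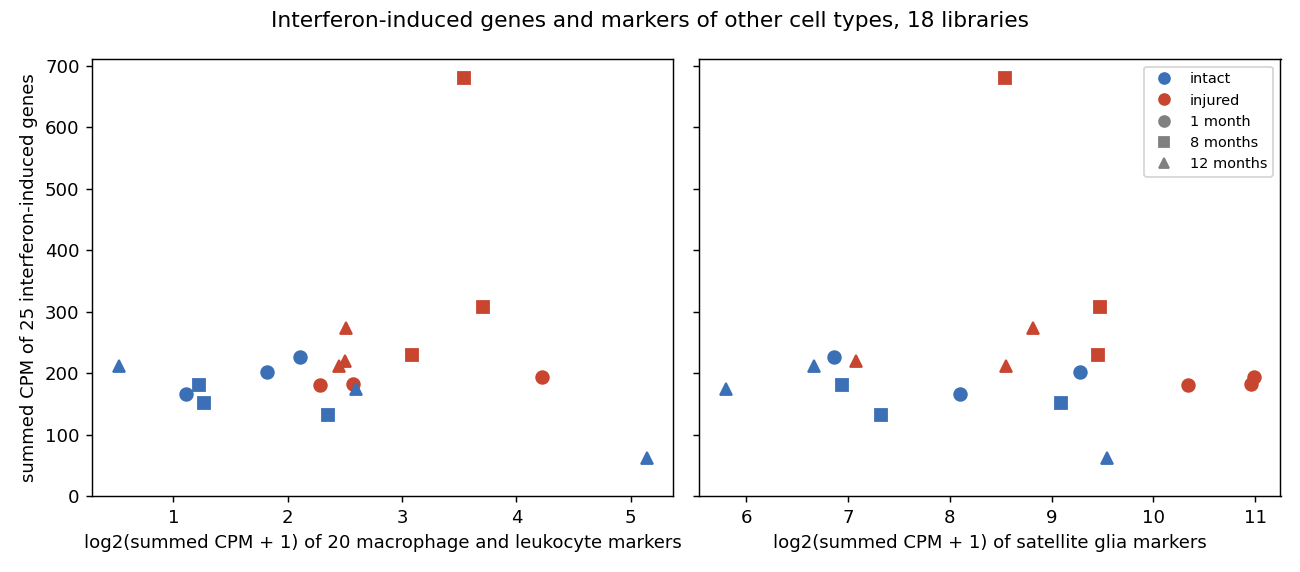
Summed CPM of the 25 interferon-induced genes (y axis) against log2(summed CPM + 1) of macrophage and leukocyte markers (left) and satellite glia markers (right) in the 18 low-input libraries. Colours give the injury state and shapes the age. The library at 679.3 CPM is injured replicate 1 at 8 months, and the lowest, at 61.4 CPM, is intact replicate 2 at 12 months. The sum includes Ifi27, at 136.3 CPM in the former and 41.5 CPM in the latter.

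Other genes of the pathway, from a list of 85, gave 55 that could be tested, and 8 of these rose in the averaged comparison, with 42 positive changes and a median of 0.42. Over all genes 5.11% were called higher, 52.7% were positive and the median was 0.03. By role these were 5 of 26 effectors, 1 of 12 receptor and signalling genes, 1 of 5 sensing genes and 1 of 12 antigen processing and MHC class I genes. Ifitm3, a membrane protein that blocks virus entry, was 0 to 0.975 CPM in the 9 intact and 2.44 to 8.32 CPM in the 9 injured libraries (4.54 ± 0.64, edgeR adjusted p = 0.00033). Ly6e, a surface protein with a similar role, was 0 to 3.61 CPM and 2.41 to 10.97 CPM (4.82 ± 0.75, adjusted p = 0.00133). Irgm1, a GTPase of the defence against intracellular microbes, had 45 counts in the intact libraries, all at 1 month, and 192 in the injured ones (5.02 ± 1.10, adjusted p = 0.016).

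Mx2, the neighbour of Mx1, was called in the injury comparison and in 3 comparisons of ages. Its mean was 3.43 ± 1.14 CPM (SD, n = 3) intact and 6.07 ± 1.05 CPM injured at 1 month, and 24.4 ± 7.53 and 89.1 ± 54.4 CPM at 8 months. At 12 months it was 5.04 ± 4.998 and 23.3 ± 5.42 CPM. It rose with injury (1.54 ± 0.30, edgeR adjusted p = 0.0052), from 1 to 8 months in intact (2.83 ± 0.54, adjusted p = 0.0196) and in injured neurons (3.87 ± 0.56, adjusted p = 0.0025), and fell by 1.98 ± 0.55 from 8 to 12 months in intact ones (adjusted p = 0.0404). Tmem173 (STING, the adaptor of DNA sensing) rose by 2.94 ± 0.62 and Oasl1 by 2.84 ± 0.63, with adjusted p-values of 0.00826 and 0.0117. H2-T23, a class I gene of the non-classical kind, rose by 3.63 ± 0.85 (adjusted p = 0.0153) and Jak1, the kinase bound to Ifnar2, by 0.99 ± 0.26 (adjusted p = 0.032), a call lost without any 1 of 7 libraries: intact or injured replicate 1 or 3 at 1 month, injured replicate 2 or 3 at 8 months, or injured replicate 2 at 12 months. With the percentage of CT010467.1 in the model, none of these pathway calls held. The replicate block also ended the calls of H2-T23, Irgm1 and Jak1, and limma-voom with quality weights those of Irgm1 and Tmem173. Ifngr1, a receptor chain for interferon gamma, was at -0.02 (edgeR adjusted p = 0.981).

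The genes outside the 42 whose rank order over the 18 libraries was most like that of Isg15 were Jcad, Ucn, AI506816, Drd2 and Nradd, with Spearman rho of 0.85, 0.84, 0.83, 0.83 and 0.82. Among the 42, Ddx58 (0.80), Oasl2 (0.73) and Oas3 (0.70) were closest, and Ifnar2 was lowest (-0.60). These are descriptions over 18 libraries that share the injury contrast, and Isg15 rests on 0 to 77 counts per library.

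In single cells the same genes could be read cell by cell. Of the 69 cells, 55 held at least 100000 counts outside the dominant feature and were used: 12 intact and 17 injured at 1 month, 8 and 18 at 1 year. Median counts in these 4 groups were 1555857, 2504750, 7145018 and 3917071. No animal is named, so a group is treated as a single sample and nothing was tested. CPM values here are the counts of all cells of a group over their counts outside the dominant feature, multiplied by 1000000, with exact 95% Poisson intervals that cover counting error only. Shares of cells are given after thinning each cell to 500000 counts, which kept 8 and 15 cells at 1 month and 8 and 15 at 1 year, with exact Clopper-Pearson 95% intervals. All 12 neuronal markers were detected in 49 of the 55 cells. At 1 year 3 injured cells held 27650 to 53030 CPM of satellite glia markers.

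Some members were present in most neurons. Ifi27, H2-D1, B2m, Stat2, Ifnar1, Irf3 and Cmpk2 were found in at least 80% of the thinned cells of every group. Stat2 was at 37.6 CPM (interval 35.7 to 39.7) in intact and 43.8 CPM (41.99 to 45.6) in injured cells at 1 month, and at 35.4 and 39.2 CPM at 1 year. Ifnar1 was at 42.3 and 35.95 CPM at 1 month and at 35.6 and 47.3 CPM at 1 year. Ifnar2 was found in 8 of 8 intact and 12 of 15 injured thinned cells at 1 month and in 7 of 8 and 10 of 15 at 1 year, at 10.02 to 14.1 CPM. In all, 38 of the 42 genes were found in at least 25% of the thinned cells of some group.

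At 1 month, the age at which the low-input libraries gave no calls, of 24 members over 10 CPM in either group, 0 were more than 4 times higher in injured cells (1.7% of the 9461 genes over 10 CPM) and 6 were more than 4 times lower (2.83% of those genes). The 6 were Irf7, Usp18, Bst2, Oasl2, Ifi35 and Xaf1. Most of them had the other direction in the low-input means at 1 month. There Ifi35 was at 3.83 CPM injured against 1.18 CPM intact, Oasl2 at 12.04 against 6.18 CPM and Bst2 at 1.025 against 0.479 CPM. Xaf1 was at 7.66 against 5.56 CPM, Irf7 at 0.783 against 0.726 CPM and Usp18 at 0.587 against 0.703 CPM. Irf7 in intact cells was at 27.7 CPM (26.03 to 29.5), against 0.911 CPM (0.669 to 1.21) in injured cells, and was found in 4 of 8 against 3 of 15 thinned cells. Usp18 stood at 19.9 CPM (18.5 to 21.5) in the intact group against 1.51 CPM (1.195 to 1.89) in the injured group, in 6 of 8 and 2 of 15 thinned cells. Oasl2 was at 169.4 CPM (165.2 to 173.7) against 30.3 CPM (28.8 to 31.8), and was found in 8 of 8 thinned intact cells (63.1 to 100%) and 9 of 15 thinned injured ones (32.3 to 83.7%).

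These pooled values rest on few cells. A single intact cell held 62.8% of the Oasl2 counts and 71.97% of the Ifit1 counts of its group, and a single injured cell 97.8% of the Ifit1 counts of the injured group. Ifit1 in the pooled intact cells was at 86.97 CPM, against 31.3 CPM in the injured ones, with medians of 14.1 and 0 CPM per cell. Without the cell with most counts of each gene in each group, 7 genes were more than 4 times lower in injured cells: Ifit1, Irf7, Usp18, Bst2, Oasl2, Ifi35 and Psmb8. Ifit1 was then at 29.5 and 0.812 CPM. The 2 intact cells with the highest summed levels of the 25 induced genes apart from Ifi27 held 1522 and 654.5 CPM, and both had all 12 neuronal markers. The highest such sum, 1752 CPM, was an injured cell with 119832 counts and 3 of 12 neuronal markers, in which it came from Oas2.

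At 1 year 4 of 18 members over 10 CPM were more than 4 times higher in injured cells, against 3.42% of the 9955 genes over 10 CPM, and 0 were more than 4 times lower (1.71%). The 4 were Ifit2, Ifih1, Trim25 and H2-K1. H2-K1 in intact cells was at 8.12 CPM (7.39 to 8.90), against 38.8 CPM (37.5 to 40.1) in injured cells, and was found in 6 of 8 thinned intact (34.9 to 96.8%) and 13 of 15 thinned injured cells (59.5 to 98.3%). Trim25 was at 3.66 and 15.04 CPM. A single injured cell, the one with 43730 CPM of satellite glia markers, held 69.1% of the Ifih1 counts of its group, at 251.8 CPM. Trim25 was highest in the same cell, at 101.6 CPM. Without the cell with most counts of each gene, all 4 were still over 4 times higher (Ifit2 4.52, Ifih1 4.69, Trim25 9.24 and H2-K1 5.34 times), but Ifit2 and Ifih1 were then under 10 CPM, at 6.78 and 3.46 CPM. With the dominant feature in the denominator, H2-K1 alone passed both the fold and the minimum of 10 CPM. The highest H2-K1 value, 294.0 CPM, was in an injured cell with 53030 CPM of satellite glia and 112.9 CPM of leukocyte markers. A further 108.2 CPM was in the cell with 43730 CPM of satellite glia markers, while 139.3 CPM was in one with 427.5 CPM. The part of other cells in H2-K1, Ifih1 and Trim25 was not tested.

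Of the 8 genes called in the low-input libraries, Mx1 had 1 count in the intact cells (0.0277 CPM) and 5 counts, all in 1 cell, in the injured cells (0.0969 CPM) at 1 month. At 1 year it was at 1.12 CPM (0.860 to 1.43) and 4.72 CPM (4.28 to 5.18), and 69.6% of the injured counts lay in 1 cell. That cell had 110.0 CPM of Mx1, 43730 CPM of satellite glia markers and 145.4 CPM of leukocyte markers. The injured cell with 53030 CPM of satellite glia markers had 20.2 CPM of Mx1. No other injured cell at 1 year had more than 2.69 CPM of Mx1, and the highest intact value was 6.47 CPM. The part of other cells in these values was not tested. Ifit3 at 1 year had 12 counts in intact cells (0.213 CPM) and 405 in injured cells (4.402 CPM), a ratio of 20.6. It was found in 0 of 8 and 5 of 15 thinned cells (0 to 36.9% and 11.8 to 61.6%). The highest Ifit3 value, 43.03 CPM, was in the injured cell with 53030 CPM of satellite glia markers. The part of other cells in that value was not tested. Pooled Ifit1 at 1 year was lower in injured cells (2.04 against 3.64 CPM), and Oasl2 was nearly level (18.45 against 17.87 CPM). Pooled Ifit3b, Usp18 and Bst2 were higher in injured cells at 1 year, with ratios of 2.92, 1.69 and 1.74. Without the cell with most counts of each gene in each group, the ratios were 3.561, 0.8407 and 1.345. Usp18 was then lower in injured cells, so its direction rested on single cells. The part of other cells in these ratios was not tested. Ifi44 was higher in intact cells at both ages, at 2.52 against 0.136 CPM and 1.78 against 0.206 CPM, and all 100 counts at 1 year in intact cells lay in 1 cell. Isg15 was found in 1 of 8 and 0 of 15 thinned cells at 1 month and in 1 of 8 and 3 of 15 at 1 year.

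**Figure D5:**
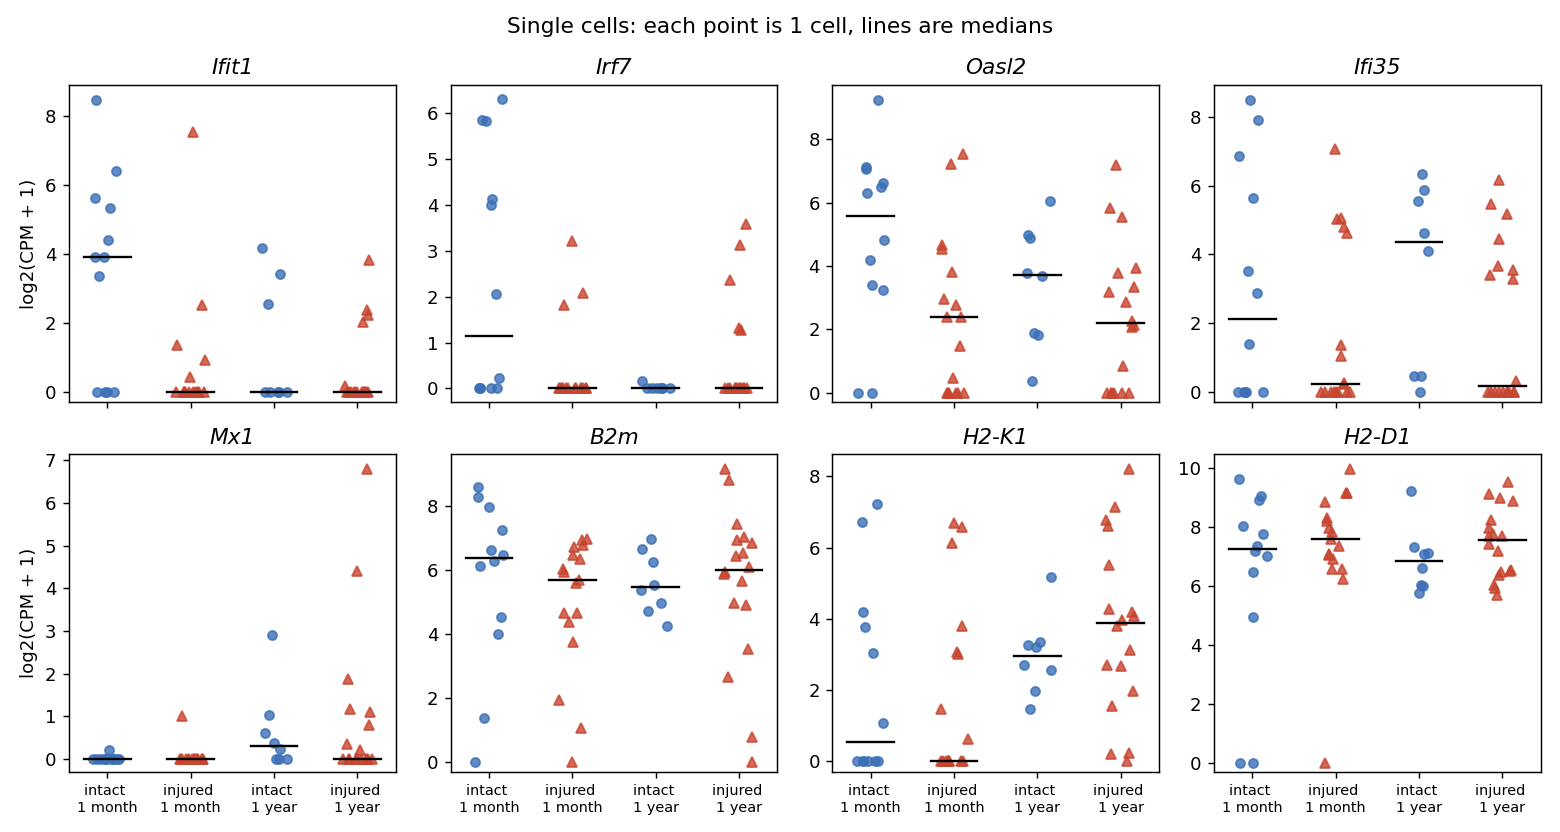
Level of 8 genes in the 55 single cells with enough depth, as log2(CPM + 1) (y axis) by group (x axis). Each point is 1 cell, circles intact and triangles injured, and black lines are medians. At 1 month the highest Irf7 and Oasl2 values are in intact cells, Mx1 is at or near 0 in nearly all cells, and B2m and H2-D1 are detected in most.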

How the data were processed

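RNA was measured in 18 low-input libraries and 69 single cells of picked sensory neurons. The authors deposited fragment counts for each gene, not normalized, made with featureCounts 1.5.2 over exons of GENCODE vM16 (GRCm38), unstranded and with reads that map once, per the file headers. Trim Galore and STAR are named in the submitters' processing notes, with versions not given in the sources used here. Reads of overlapping or near-identical genes are therefore uncertain. The deposited exon lengths in bp (unit: other) were used for levels per kb. The methylation samples are not analysed here. All 87 count columns matched a sample, and 0 features named no gene.

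After the 92 ERCC spike-ins were set aside, edgeR 4.0.16 in R 4.3.3 was used: filterByExpr chose the genes, TMM gave the scaling, and glmQLFit (robust) fitted 6 group means to the 18 libraries (14212 genes, 12 residual degrees of freedom, biological coefficient of variation 0.543). Tests are two-sided, p-values were adjusted over all genes of a comparison (Benjamini-Hochberg), and the threshold was 0.05. Fold bounds use a floor of 3 counts over a group. Counting intervals and floors do not cover PCR copies. Same-numbered injured and intact libraries at 1 month had deviations from the group means that correlated at 0.164, 0.29 and 0.405 over 3992 genes. Libraries with unlike numbers at 1 month correlated at -0.392 to 0.122. Whether the numbers pair the libraries rests on these correlations alone, and at 8 and 12 months no such pattern was seen. The main fit has no block, so its p-values ignore any pairing. The replicate block entered only as an alternative. Single cells were pooled, or thinned to 500000 counts, with Python 3.11.15 and NumPy 2.4.6.

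The 42 genes, the pathway and marker lists and the tests were chosen with earlier results of these data known. Values per library are given for genes called in the averaged comparison or in at least 2 others and for 13 genes set by name. Pathway genes are named where called in the averaged comparison; Ifngr1 was added after its values were seen. Other members are named within their role groups. In single cells, genes are named where found in 25% of the thinned cells of a group, or where pooled CPM over 10 differed more than 4 times. Alternatives covered scaling, filter, tool, covariate, replicate block, each library left out in turn, and the depth and denominator of single cells. Leaving out injured replicate 1 at 8 months and intact replicate 2 at 12 months together was added after seeing the data.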

Additional observations from a re-analysis of the deposited data

Results flagged for a closer look

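Among the 8 intact cells at 1 year, 8 measures were checked for a cell far from the others, by the gap to the nearest cell as a share of the whole range, with a critical value of 0.526. That value passes about 1 group in 20 by chance for normally distributed values, which CPM of single cells need not be. Some measures also share genes, as the MHC class I sum includes H2-D1 and H2-K1. The 5 of 8 measures that passed can therefore not be set against a chance rate. In 1 cell the 6 antigen processing and MHC class I genes summed to 752.9 CPM, with the next cell at 275.6 CPM, and H2-D1 was at 587.8 CPM, with the next at 160.4 CPM. The same cell held 525.0 CPM of leukocyte markers, with 11 of 20 markers detected, and the next cell held 19.7 CPM. In the cell with 525.0 CPM, satellite glia markers were at 7388 CPM, the highest of the 8. Its neuronal markers were at 3418 CPM, against 20330 to 46210 CPM in the others. The part of other cells in its H2-D1 value was not tested. Another cell had the highest Mx1, at 6.47 CPM against 1.05 CPM in the next. Yet another cell had the highest H2-K1, at 34.8 CPM against 9.27 CPM.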

How the results depend on the processing

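Counts below are of the 42 genes at an adjusted p below 0.05. The share of all genes called also changes with the setting and is not given for the alternatives, here or above. These counts therefore show how calls depend on the setting, not how the 42 genes compare with other genes. For injury averaged over ages (8 in the main analysis) they were 36 with scaling to ERCC, which moved the median of all genes to 2.90 on the log2 scale, 17 without an expression filter, where 42 genes were tested, 4 with limma-voom (with quality weights throughout), 11 with DESeq2, 1 with the covariate and 4 with the replicate block. Leaving out 1 library gave 7 to 10. For injury at 8 months (5) they were 8 with ERCC scaling, 11 without a filter, 9 with DESeq2, 1 with the replicate block, 3 without both libraries that stood apart, and 0 with limma-voom, the covariate or only the libraries compared; leaving out 1 library gave 0 to 6. For injury at 12 months (3) they were 37 with ERCC scaling, 8 without a filter, 7 with DESeq2, and 0 with limma-voom, the covariate, the replicate block or only the libraries compared; leaving out 1 library gave 0 to 3. For injury at 1 month (0) they were 2 without a filter and 1 with DESeq2, and leaving out 1 library gave 0 to 1 (Mx1, without injured replicate 1 at 8 months). Scaling to DESeq2's size factors in edgeR (RLE) left 8, 5, 3 and 0 calls. The injury by age interaction (0) had 2 with ERCC scaling, 5 without a filter and 2 with DESeq2. Among comparisons of ages, all at 0, intact 8 against 1 month had 2 with ERCC scaling, 5 without a filter and 1 with DESeq2; intact 12 against 1 month had 31, 3 and, leaving out 1 library, 0 to 1; intact 12 against 8 months had 3, 6, 3 with DESeq2, 1 with the covariate and, leaving out 1 library, 0 to 1. Injured 8 against 1 month had 6 without a filter, 2 with DESeq2, 2 with limma-voom and 1 with only the libraries compared; injured 12 against 1 month had 5 with limma-voom and 2 with only the libraries compared; injured 12 against 8 months had 4 without a filter and 3 with limma-voom. The cause of these differences was not tested. The replicate block changed no other count of calls.

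Signs turned in the averaged comparison for genes under the threshold. With ERCC scaling the log2 change was 2.39 for Ifnar2, 2.67 for Irf3, 1.71 for H2-K1 and 2.19 for H2-D1. With the covariate it was 0.34 for Ifnar2, -0.46 for Irf9, 1.501 for H2-K1 and 0.99 for H2-D1. Leaving out 1 library gave -0.228 to 0.141 for Irf3 (turned without intact replicate 1 at 12 months), -1.045 to 0.074 for H2-K1 (turned without intact replicate 3 at 12 months) and -0.535 to 0.165 for H2-D1 (turned in 7 cases). In single cells at 1 year, the 4 genes over 4 times higher in injured cells and over 10 CPM became 1 with the dominant feature in the denominator and 2 without the cell with most counts, where the other 2 stayed over 4 times but fell under 10 CPM. At 1 month the 6 lower genes became 5 and 7. Depth limits Isg15, Oas2, Oas3, Trim30a and Parp9, which were not tested.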
